A study of Mus musculus with 6 samples.

Results

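Oxidative phosphorylation uses 5 enzyme complexes of the inner mitochondrial membrane. Complexes I to IV pass electrons from NADH or succinate to oxygen and, except for complex II, pump protons, and complex V, the ATP synthase, makes ATP as the protons flow back. Complex II is encoded by nuclear genes alone, whereas the other complexes combine subunits made from nuclear genes in the cytosol with core subunits made from mitochondrial DNA inside the organelle. In the cortex this system supplies most of the ATP that neurons spend on ion pumping and synaptic transmission. The genes described here were chosen by symbol: the Nduf families for complex I, Sdha to Sdhd for complex II, Uqcr for complex III, Cox4 to Cox8 for complex IV, Atp5 for complex V, and the protein-coding genes of mitochondrial DNA, leaving out 2 symbols in the table that carry the pseudogene suffix. This gave 99 of the 18160 genes in the table, 86 encoded in the nucleus and 13 in mitochondrial DNA. Subunits with other symbols, such as Cyc1 of complex III and Ndufab1 of complex I, are not in this set.

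The RNA was taken from prefrontal cortex at postnatal day 56, from mice of the C57BL/6J strain. Of the 6 samples, 3 were wild type and 3 carried a Cyfip2 mutation on a single allele. Cyfip2 encodes a subunit of the WAVE complex, which controls branched actin filaments. The libraries were made from polyadenylated RNA with strand information, and the labels do not say how the allele was made, which sex the mice were, or whether each sample is a different mouse, so p-values measure only the spread between these samples.

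Values are normalized counts, which the authors had already scaled between samples. The depth implied by the lowest values ran from 27.1 to 47.8 M reads per sample, and totals after normalization ran from 36.4 to 37.1 M. Cyfip2 itself was at 44752 ± 1369 in wild type and 28834 ± 644 in heterozygotes (SD, n = 3 each), a log2 fold change of -0.63 (limma, adjusted p = 0.0027), which matched the labels. Of 15 neuronal markers, 7 were higher and 8 lower in heterozygotes (summed level 358613 to 386867 in wild type, 355484 to 365885 in heterozygotes), 5 had an unadjusted p under 0.05, beside 5.07% of all genes, and 5 did not overlap between genotypes, beside 10.5% of all genes. Among lists of other cell types and tissues, 0 of 12 oligodendrocyte genes were higher in heterozygotes (summed level 136291 to 189764 in wild type, 132898 to 144067 in heterozygotes). Of 12 genes of meninges and fibroblasts, 11 were higher (6802 to 8445 against 7893 to 8999), and of 10 striatal genes 7 were lower (12223 to 13581 against 10699 to 11569). No marker of these lists was at 0 in any sample, none passed the adjusted threshold, and their part in the differences below was not tested.

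Between genotypes, no subunit gene of any complex passed the test. Of the 99 genes, 95 reached a mean normalized count of at least 10 and were tested within the fit over all 15151 such genes, and 0 of them had an adjusted p under 0.05, where 0.0132% of all genes did. The smallest adjusted p among them was 0.90, for Ndufb4. At an unadjusted p under 0.05 there were 2 of the 95, Ndufb4 and Ndufb2, beside 5.07% of all genes. Both were lower in heterozygotes, as 2.71% of all genes were at this p, and none was higher, as 2.36% were. Wild-type and heterozygous samples did not overlap in 11 of the 95 genes (11.6%), 3 with the heterozygotes above and 8 below, beside 10.5% of all genes. Log2 fold changes (heterozygous over wild type, on the scale of log2 of the value plus 1) ran from -0.39 to 0.11, and their median was -0.01, beside 0.00 for all genes tested.

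These genes are abundant, and their estimates were tight. The median standard error of the log2 fold change was 0.066 for the 95 genes and 0.088 for all genes. The 95% interval lay wholly within a 1.25-fold change in either direction for 83 of the 95 (87.4%), beside 59.8% of all genes. In bulk tissue, fewer cells of a type and less RNA per cell cannot be told apart, and the same holds for fewer mitochondria.

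**Figure D1:**
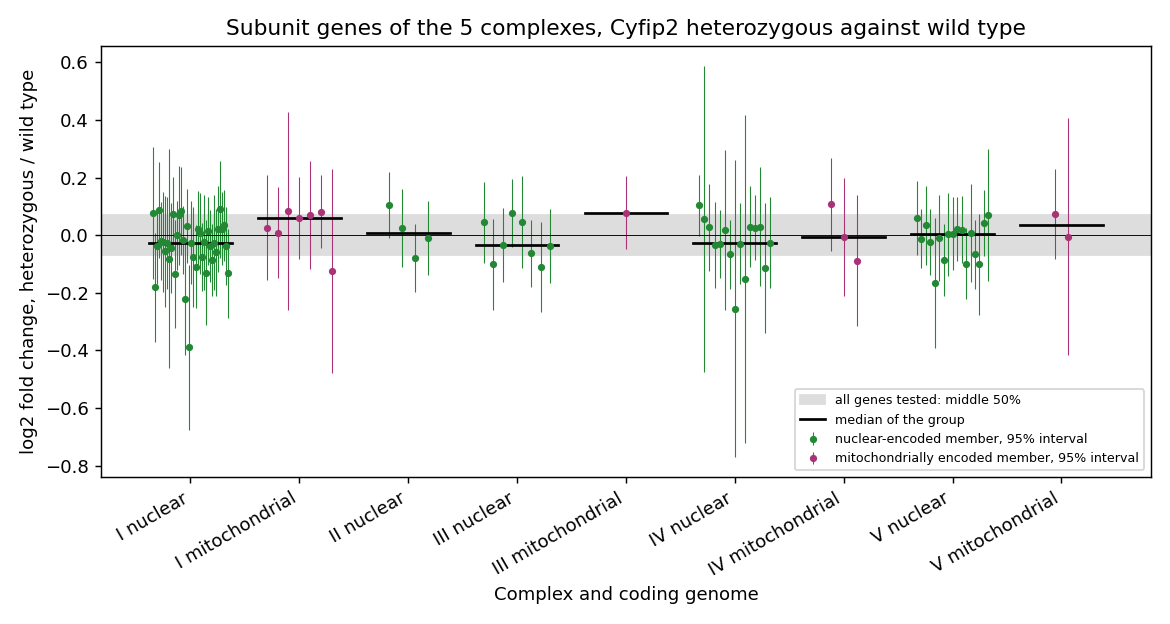
Log2 fold change, heterozygous over wild type, of each tested subunit gene with its 95% interval, by complex and coding genome; black bars are group medians and the grey band holds the middle 50% of all genes tested. Every group median lies within 0.08 of 0, and Ndufb4 at -0.39 is the lowest point.

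The medians of nuclear and mitochondrial genes lay on different sides of 0 by a small margin, and leaving out wild-type sample 1 put both just below 0. Of 82 nuclear genes tested, 34 were higher and 48 lower in heterozygotes, with a median log2 fold change of -0.025, which was -0.0047 without wild-type sample 1 and -0.0097 without wild-type sample 2. Of the 13 mitochondrial genes, 9 were higher and 4 lower, with a median of 0.059, which ran from -0.0064 without wild-type sample 1 to 0.094 without heterozygous sample 1. All genes tested split into 7701 higher and 7450 lower.

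The mean log2 level of the nuclear genes, relative to the wild-type mean, was 0.02, 0.01 and -0.03 in wild-type samples 1 to 3 and -0.03, -0.03 and -0.02 in heterozygous samples 1 to 3. The heterozygous samples sat close together and wild-type sample 3 lay among them, so the groups overlapped. The mitochondrial genes were at -0.06, 0.08 and -0.02 in wild type and at -0.12, 0.17 and 0.03 in heterozygotes. Here the heterozygous samples held both the lowest value, in sample 1, and the highest, in sample 2. Cytosolic ribosomal protein genes, also short and abundant, were lowest and highest in the same 2 samples, at -0.10 and 0.16. Whether one source moves both groups was not tested.

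**Figure D2:**
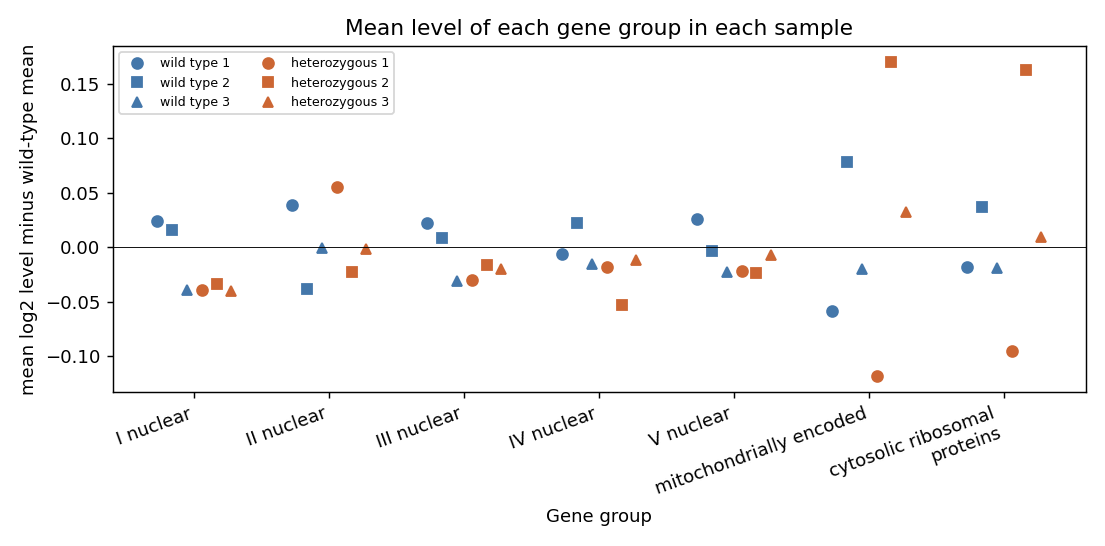
Mean log2 level of each gene group in each sample minus the wild-type mean of the group; blue points are wild type, orange points heterozygous, and shapes mark sample numbers. The nuclear groups stay within 0.06 of 0, while the mitochondrial genes spread from -0.12 to 0.17 within the heterozygotes.

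As a share of each sample's total, mitochondrially encoded subunit genes took 8.13%, 8.83% and 8.38% in wild type and 8.19%, 9.47% and 8.67% in heterozygotes. The nuclear genes together took 0.879%, 0.881% and 0.850% in wild type and 0.882%, 0.862% and 0.867% in heterozygotes. Per kilobase of transcript, the median level was 208387 normalized counts for the mitochondrial genes and 3154 for the nuclear ones. Within the nuclear groups the median per kilobase was 2468 for complex I, 2540 for complex II, 4957 for complex III, 5272 for complex IV and 5358 for complex V. Complexes I and II thus stood below the other complexes per length of transcript.

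Complex I takes electrons from NADH through the flavin of Ndufv1 and a chain of iron-sulphur clusters to ubiquinone. The 38 nuclear genes tested, taken by symbol, include the processed pseudogene Ndufb4c (log2 fold change -0.03), Ndufa4 (-0.03) and its relative Ndufa4l2 (-0.08). Of the 38, 13 were higher and 25 lower in heterozygotes, with a median log2 fold change of -0.026. That median was -0.011 without wild-type sample 1, -0.014 without wild-type sample 2 and -0.039 without wild-type sample 3. None had all heterozygous samples above wild type, where 5.15% of all genes did, and 4 had all of them below (Ndufb9, Ndufs3, Ndufb2 and Ndufb6), where 5.3% of all genes did. Ndufv1 and Ndufs1, both of the NADH-oxidizing module, had log2 fold changes of 0.03 and 0.01.

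The complex I genes with the smallest p were accessory subunits, which surround the catalytic core. Ndufb4, of the membrane arm (chromosome 16, 37647170 to 37654453, minus strand, GRCm38), was at 536, 580 and 425 in wild type and 366, 363 and 442 in heterozygotes. Heterozygous samples 1 and 2 lay below every wild-type sample, and sample 3 lay above wild-type sample 3. The log2 fold change was -0.39 ± 0.13 (SE, 95% interval -0.68 to -0.10, limma, unadjusted p = 0.013, adjusted p = 0.90).

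Ndufb4 cannot be read on its own. All 31-base windows of Ndufb4c, an annotated processed pseudogene on chromosome 15 whose symbol fits the rule, also occur in Ndufb4, and Ndufb4c carried more of the reads: 1357, 1372 and 1292 in wild type and 1247, 1369 and 1336 in heterozygotes. Ndufb4 made up 20.9% to 29.7% of the pair. The sum of both was 1892, 1953 and 1717 in wild type and 1613, 1731 and 1778 in heterozygotes, and the groups overlapped. Its log2 fold change was -0.12 ± 0.07 (95% interval -0.27 to 0.04, limma, unadjusted p = 0.12). Relative to the larger summed level the log2 fold change was thus smaller than for Ndufb4 alone, and the interval included 0.

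Ndufb2, another membrane-arm subunit (chromosome 6, 39592574 to 39603382, plus strand), was at 1438, 1738 and 1552 in wild type and 1224.5, 1426 and 1401 in heterozygotes. All heterozygous samples lay below wild type, although wild-type sample 1 and heterozygous sample 2 were nearly equal. The log2 fold change was -0.22 ± 0.09 (limma, unadjusted p = 0.029, adjusted p = 0.95). Ndufa10, an accessory subunit of the membrane arm, was at 4297, 4353 and 4402 in wild type and 4374, 3845 and 3359 in heterozygotes. Its wild-type samples were nearly equal and heterozygous sample 1 lay among them, so its log2 fold change of -0.18 ± 0.08 came from samples 2 and 3.

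Complex II, succinate dehydrogenase, joins the citric acid cycle to the respiratory chain. Sdha, its flavoprotein (chromosome 13, 74322254 to 74350280, minus strand), was at 13809, 13348 and 13420 in wild type and 15278, 14488 and 13874 in heterozygotes. All heterozygous samples lay above wild type, with a log2 fold change of 0.10 ± 0.05 (limma, unadjusted p = 0.073, adjusted p = 0.95). Sdhc, a membrane anchor that holds haem and quinone, was at 2507, 2445 and 2605 in wild type and 2370, 2378 and 2403 in heterozygotes, all below, with a log2 fold change of -0.08 ± 0.05 (limma, unadjusted p = 0.17, adjusted p = 0.95). The values of the flavoprotein and of this anchor thus lay on opposite sides of wild type, and neither passed the test. The iron-sulphur subunit Sdhb (0.03) and the other anchor Sdhd (-0.01) overlapped between genotypes.

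Complex III passes electrons from ubiquinol to cytochrome c. Of its 8 nuclear genes matched by symbol and tested, 3 were higher and 5 lower, with a median log2 fold change of -0.04. Uqcrc1, a core protein and the most abundant of them, was at 7716, 7780 and 7367 in wild type and 8428, 8001 and 7705 in heterozygotes (log2 fold change 0.08 ± 0.05, limma, unadjusted p = 0.18). Uqcrfs1, the Rieske iron-sulphur protein, had its heterozygous samples at 2781 to 2950, just below the wild-type samples at 2966 to 3061. Uqcrh, the hinge protein that docks cytochrome c, was at 3297, 3304 and 3246 in wild type and 2734, 3289 and 3121 in heterozygotes, and its log2 fold change of -0.11 ± 0.07 drew mainly on heterozygous sample 1.

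Complex IV, cytochrome c oxidase, reduces oxygen. Cox4i1, the ubiquitous form of its largest nuclear subunit (chromosome 8, 120668222 to 120674207, plus strand), was at 12277, 12454 and 11721 in wild type and 13250, 13022 and 12873 in heterozygotes. Every heterozygous sample exceeded every wild-type sample, and the log2 fold change was 0.10 ± 0.05 (limma, unadjusted p = 0.056, adjusted p = 0.95). The 15 nuclear genes of the complex split into 7 higher and 8 lower, with a median of -0.03, and the sign of that median turned when wild-type sample 2 (0.01) or heterozygous sample 2 (0.00) was left out. Cox6b1, on the face that meets cytochrome c, was at 4434, 4667 and 4315 in wild type and 4370, 4287 and 4149 in heterozygotes, with a log2 fold change of -0.07 ± 0.05.

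**Figure D3:**
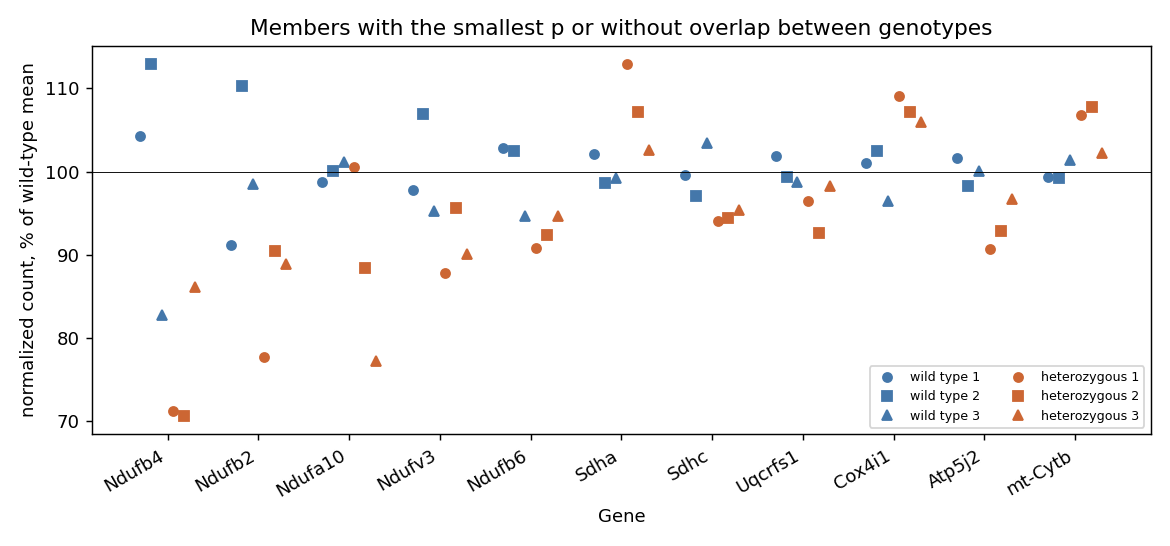
Normalized counts of 11 subunit genes picked from those with a small unadjusted p or without overlap between genotypes. Each sample is given as percent of the wild-type mean of the gene, with blue points for wild type and orange points for heterozygous. Ndufb9, Ndufs3 and Cox6b2, which had all heterozygous samples below wild type, are not shown. Sdha, Cox4i1 and mt-Cytb have all heterozygous samples above wild type. In Ndufb4, Ndufa10 and Ndufv3 a heterozygous sample lies among the wild-type samples.

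Several complex IV subunits have a second gene used in muscle, lung or testis, and in these samples the brain forms dominated in both genotypes. Per length of transcript, Cox4i2, the form known from lung and from oxygen sensing, stood at 0.220% to 0.355% of Cox4i1 across the 6 samples. The heart and muscle form Cox6a2 stood at 1.75% to 2.46% of Cox6a1, the testis form Cox6b2 at 0.713% to 0.934% of Cox6b1, and the muscle form Cox7a1 at 0.847% to 1.18% of Cox7a2. Cox6b2 had all heterozygous samples below wild type, but at low values of 22 to 32. Cox7a2l, a relative of Cox7a2 known as a factor that joins complexes III and IV into supercomplexes, was far closer to it, at 61.1% to 67.8%.

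The 4 genes below the filter also belonged to these families or were copies. Cox8b, the muscle form of Cox8a, had values of 2 to 5 and per length stood at 0.0213% to 0.0631% of Cox8a. It had all heterozygous samples above wild type at a depth of a few reads. Cox7b2, a testis form, had a mean of 5.56, and the processed pseudogenes Cox6c2 and Ndufa11b had means of 1.16 and 1.17. Ndufa4, named as a complex I gene and now counted as a complex IV subunit, was at 4916 to 5749, and its hypoxia-induced relative Ndufa4l2 stood at 0.547% to 0.802% of it per length.

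**Figure D4:**
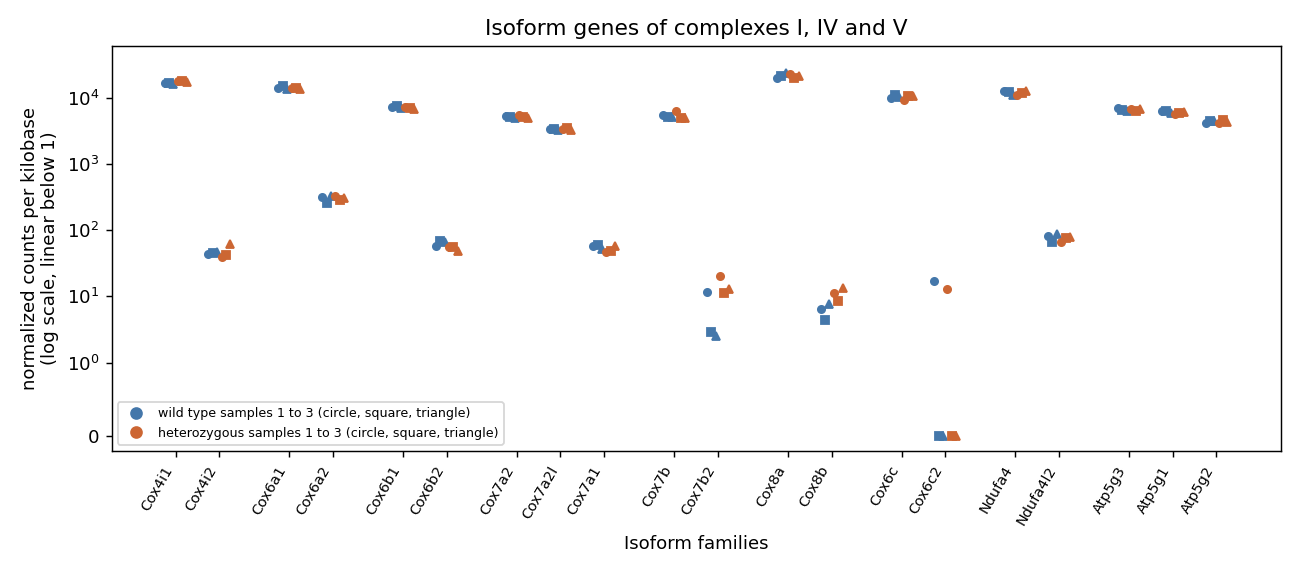
Normalized counts per kilobase of transcript for the isoform families of complexes I, IV and V in each sample, on a log axis that is linear below 1; blue points are wild type, orange points heterozygous. The brain forms of complex IV lie far above the muscle, lung and testis forms in all 6 samples, while the c-ring genes of complex V lie close together.

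Complex V makes ATP. Its catalytic subunit Atp5b was the most abundant nuclear gene of the whole set, at 35201, 35065 and 34346 in wild type and 34780, 34654 and 34318 in heterozygotes. The genotypes differed by a log2 fold change of only -0.01 ± 0.05. Of the 17 genes, 9 were higher and 8 lower, with a median of 0.00. Atp5j2, of the membrane part, was at 2279, 2205 and 2244 in wild type and 2033, 2083 and 2169 in heterozygotes, all below, with a log2 fold change of -0.10 ± 0.05 (limma, unadjusted p = 0.10, adjusted p = 0.95).

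Atp5e, the epsilon subunit of the central stalk, was at 1336, 1425 and 1239 in wild type and 1017, 1227 and 1337 in heterozygotes. Heterozygous sample 1 stood apart from the rest, and the log2 fold change was -0.17 ± 0.10. Atp5g1, Atp5g2 and Atp5g3 encode the same mature c-ring protein. Of their summed counts Atp5g3 gave 44.8% to 48.7%, Atp5g1 33.3% to 36.1% and Atp5g2 17.2% to 20.1%. The share of Atp5g1 was 35.3% to 36.1% in wild type and 33.3% to 35.1% in heterozygotes, and the other shares overlapped. The Atp5g1 shares were thus apart by a narrow margin, while its counts overlapped between genotypes. How often such shares lie apart in other genes was not tested. Atp5s fits the rule by its older symbol but is now named for its likeness to a complex I assembly factor and is not counted as a subunit, and its log2 fold change was 0.07 ± 0.10.

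Mitochondrial DNA encodes 7 subunits of complex I, cytochrome b of complex III, the 3 catalytic core subunits of complex IV and 2 subunits of complex V. They are cut from long transcripts of either strand, and some reading frames overlap within a shared messenger. The 2 overlaps on the plus strand are shown because counts within them cannot be assigned to one gene, with the start codon of the second frame in capitals (GENCODE M21 transcripts, GRCm38). They lie at chrM:7927-7969 for mt-Atp8 and mt-Atp6 and at chrM:10167-10173 for mt-Nd4l and mt-Nd4.
mt-Atp8 and mt-Atp6: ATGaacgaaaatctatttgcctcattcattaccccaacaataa
mt-Nd4l and mt-Nd4: ATGctaa

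Levels per kilobase ranged from 2440 for mt-Nd6, the one of these genes encoded on the opposite strand, to 636264 for mt-Co1. The libraries were made from polyadenylated RNA, and the part of that selection in these levels was not tested. Counts of genes of a shared messenger, divided by full transcript length, were not equal. The part of the short frames in this, 204 bases for mt-Atp8 and 297 for mt-Nd4l, was not tested. Per length mt-Atp8 stood at 42.0%, 49.3% and 44.6% of mt-Atp6 in wild type and at 31.9%, 52.4% and 46.8% in heterozygotes. The lowest and the highest value were both heterozygous. mt-Nd4l stood at 75.02% to 90.5% of mt-Nd4.

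mt-Cytb, the cytochrome b gene (mitochondrial bases 14145 to 15288), had no overlap between genotypes. It was at 298653, 298211 and 304603 in wild type and 320828, 323943 and 307137 in heterozygotes, all above, with a log2 fold change of 0.08 ± 0.06 (limma, unadjusted p = 0.20, adjusted p = 0.95). mt-Co1, the oxidase subunit that holds the oxygen-binding site, was at 905009, 979638 and 954523 in wild type and 967964, 1067310 and 1023720 in heterozygotes, where only heterozygous sample 1 lay within the wild-type range (log2 fold change 0.11 ± 0.07). In every mitochondrial gene but mt-Cytb the genotypes overlapped.

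Of the complex I genes in mitochondrial DNA, mt-Nd5 (0.08 ± 0.06), mt-Nd4 (0.06 ± 0.06), mt-Nd1 (0.03 ± 0.08) and mt-Nd2 (0.01 ± 0.07) had small positive log2 fold changes. Among the short frames and the opposite strand, mt-Nd3, mt-Nd6 and mt-Atp8 were measured less tightly, but mt-Nd4l was not. The log2 fold change was 0.08 ± 0.15 for mt-Nd3 and 0.07 ± 0.08 for mt-Nd4l, -0.12 ± 0.16 for mt-Nd6 and -0.01 ± 0.18 for mt-Atp8. Without heterozygous sample 1 the values for mt-Nd6 and mt-Atp8 became 0.09 and 0.24.

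The log2 fold changes of the cytochrome c oxidase genes mt-Co2 and mt-Co3 differed with and without the counts of their nuclear copies. How reads were assigned between gene and copy was not tested. By themselves they had log2 fold changes of -0.01 ± 0.09 and -0.09 ± 0.10, with the lowest values of all samples in heterozygous sample 1, at 287378 and 256276. Nuclear DNA carries copies of mitochondrial sequence, and the table lists several as genes of their own. Gm28661, on chromosome 1, whose transcript shares 651 31-base windows with mt-Co2, was at 14664, 1382 and 6754 in wild type and 102835, 10084 and 12857 in heterozygotes. Gm28437, also on chromosome 1 and sharing 753 windows with mt-Co3, was at 49400, 16273 and 40248 in wild type and 129315, 46935 and 70501 in heterozygotes. In both, heterozygous sample 1, the lowest in the mean of the mitochondrial genes, was the highest by far. Gm29216, a copy of mt-Co1 with the most counts, was at 182710, 172844 and 189921 in wild type and 250179, 193739 and 202620 in heterozygotes. Gm28438, a copy of mt-Nd3, did not share this pattern. It was at 6409, 1115 and 5513 in wild type and 1893, 5962 and 4964 in heterozygotes.

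Adding each such copy to the mitochondrial gene with which it shares most windows, a step chosen after seeing the data, changed these genes. mt-Co2 with its copies was at 337071, 348485 and 332251 in wild type and 390290, 383707 and 348083 in heterozygotes, where a single heterozygous sample remained within the wild-type range. Its log2 fold change became 0.14 ± 0.06. mt-Co3 with its copy was at 354440, 348933 and 339734 in wild type and 385591, 392142 and 356511 in heterozygotes, no longer overlapping, and its log2 fold change became 0.12 ± 0.06. mt-Co1, with 2 copies, also no longer overlapped, with 0.13 ± 0.06. The signs for mt-Co2 and mt-Co3 therefore turned, and heterozygous sample 1 was no longer the lowest sample in either. In mt-Nd3 the copy had another effect. Its log2 fold change went from 0.08 to 0.03 ± 0.12, and heterozygous sample 1 became the lowest sample, at 17990.

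None of these sums passed the test either: with copies added, the smallest adjusted p among mitochondrial genes was 0.95 (limma), 11 of 13 were higher in heterozygotes and 3 had all heterozygous samples above wild type (mt-Cytb, mt-Co1 and mt-Co3), as 5.15% of all genes did without such sums. All mitochondrial genes with their 11 copies took 8.82%, 9.36% and 9.03% of the total in wild type and 9.50%, 10.2% and 9.47% in heterozygotes. Every heterozygous sample was above every wild-type sample on this sum, which was formed after seeing the values, whereas without the copies the groups overlapped. The copies came to 8.46%, 5.97% and 7.83% of the mitochondrial genes' counts in wild type and to 15.9%, 7.39% and 9.20% in heterozygotes.

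**Figure D5:**
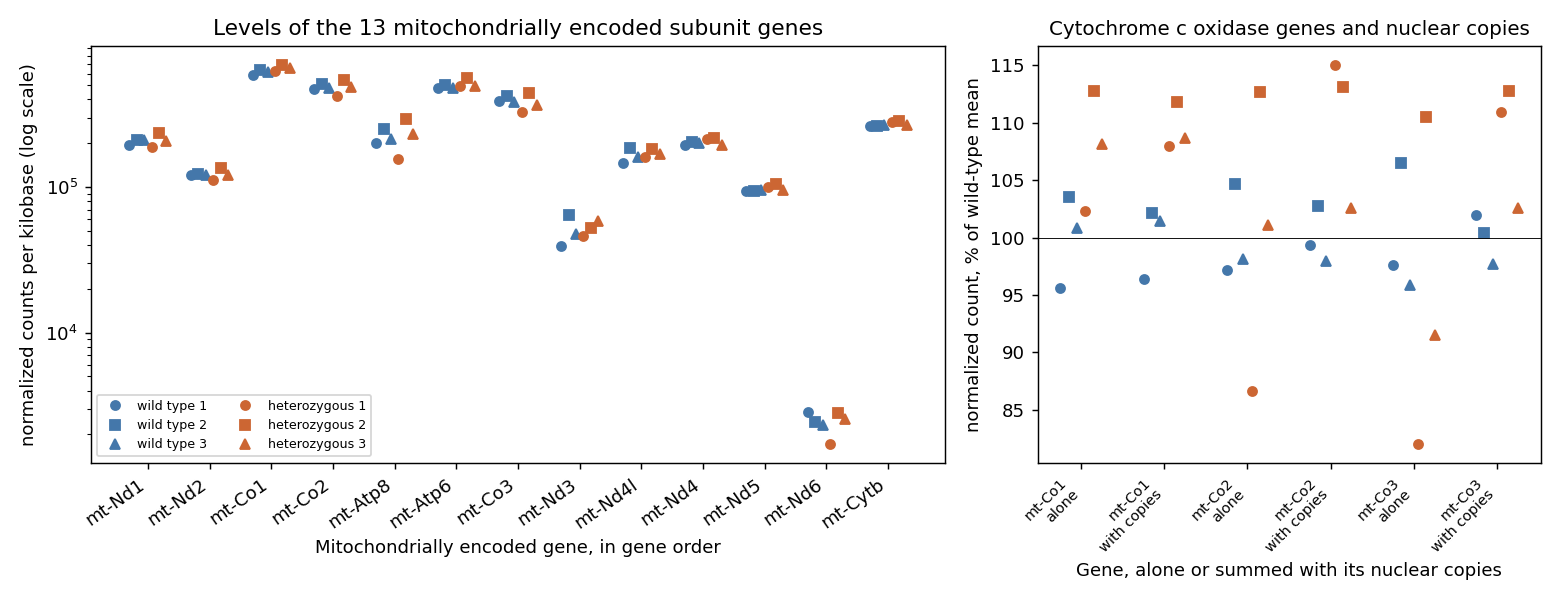
Left, normalized counts per kilobase (log axis) of the 13 mitochondrially encoded genes in gene order in each sample; right, mt-Co1, mt-Co2 and mt-Co3 alone and summed with their nuclear copies, as percent of the wild-type mean. Heterozygous sample 1 is lowest in mt-Co2 and mt-Co3 alone, at 287378 and 256276, and not when the copies are added, at 390290 and 385591.

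Nuclear genes were less affected by copies. Of the 99 genes of both genomes, 64 share at least one 31-base window with another gene and 15 share over 50% of their windows. These counts include mitochondrial genes such as mt-Co2 and mt-Co3. All windows of the nuclear gene Atp5g2 are shared, and adding its copy Gm10175 took its log2 fold change from 0.0029 to -0.0092. Pseudogene copies in the table came to 0.55% to 0.63% of the nuclear genes' summed counts in each sample. With them added and the pseudogene members folded in, 81 nuclear genes split into 33 higher and 48 lower. Apart from Ndufb4, Cox7c had the most reads in a copy, and its log2 fold change went from -0.11 to -0.08.

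The nuclear genes with the shortest transcripts were mostly lower in heterozygotes. Among the 28 nuclear genes with the shortest transcripts, 315 to 572 bases, 6 were higher and 22 lower (median log2 fold change -0.04). Among the 27 of 590 to 955 bases, 15 were higher and 12 lower, and among the 27 of 971 to 3171 bases, 13 were higher and 14 lower. All tested genes in the shortest range split 165 to 150. In the shortest subunit genes the mean log2 deviation from the mean of all 6 samples was highest in wild-type sample 2, at 0.08, and lowest in heterozygous sample 1, at -0.07, so a single sample of each genotype lay at the ends. The part of transcript length in the difference was not tested.

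The genes around the complexes also had none past the adjusted threshold in any list, but the direction differed between lists. Of 46 assembly factors tested, 18 were higher and 28 lower (median log2 fold change -0.02). The one with the smallest p was Ndufaf6, which acts in complex I assembly, at 181, 146 and 182 in wild type and 136, 137 and 119 in heterozygotes, all below (-0.37 ± 0.13, limma, unadjusted p = 0.021, adjusted p = 0.93). Of 12 carriers of electrons and nucleotides, among them cytochrome c, 9 were higher and 3 lower (median 0.04, smallest p Etfa at 0.10 ± 0.08). The 12 include Cyc1 (0.01 ± 0.06) and Ndufab1 (-0.03 ± 0.07), subunits of complexes III and I that the symbol rule does not match.

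Of 19 genes of the citric acid cycle and pyruvate dehydrogenase, 16 were higher and 3 lower, with a median of 0.03. Fh1, fumarate hydratase, which takes up the product of succinate dehydrogenase, was at 2503, 2389 and 2302 in wild type and 3034, 2511 and 2614 in heterozygotes, all above (0.18 ± 0.08, limma, unadjusted p = 0.042, adjusted p = 0.95). The mean of this list was highest in heterozygous sample 1, at 0.13 above the wild-type mean, and near 0 in the other two. Of 17 glycolysis genes 11 were higher and 6 lower (median 0.02, smallest p Eno1 at 0.07 ± 0.05).

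Of 20 genes that copy and express mitochondrial DNA, 12 were higher and 8 lower (median 0.01). Tfam, which packages mitochondrial DNA and starts its transcription, was at 1036, 1034 and 1221 in wild type and 833, 926 and 870 in heterozygotes. All heterozygous samples lay below wild type, with a log2 fold change of -0.32 ± 0.08 (95% interval -0.51 to -0.13, limma, unadjusted p = 0.0034, adjusted p = 0.73). The mitochondrially encoded genes in the same samples had a median of 0.06. Of 14 nuclear regulators of respiratory genes, 6 were higher and 8 lower (median -0.01), with the smallest p in Esrrg, an oestrogen-related receptor (-0.15 ± 0.08, adjusted p = 0.95 by limma).

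Promoter sequence was searched for letters known from respiratory genes. RefSeq entries (GRCm38.p6, 250 bases before to 50 after the gene start) were found for 66 of the 86 nuclear genes. The core of the NRF1 site (GCGC, any 2 bases, then GCGC, which reads the same on both strands) occurred in 17 of the 66 (25.8%) and in 11.6% of 12869 promoters of genes in the table. By complex it occurred in 8 of 32 promoters for complex I, 2 of 3 for complex II, 1 of 5 for complex III, 1 of 13 for complex IV and 5 of 13 for complex V. The ETS letters CCGGAAG, on either strand, occurred in 22.7% against 15.3%, and the YY1 letters AAGATGGCG in 9.09% against 2.60%. A match is a run of letters and not a shown binding site.

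Sdha and Ndufb4 had the most NRF1 matches in this window among the 66 promoters, with 3 each. Their sequence before the start in both annotations is printed 5′ to 3′ on the minus strand with the NRF1 letters in capitals, from chr13:74350281-74350490 for Sdha, with 2 of the matches, and from chr16:37654454-37654618 for Ndufb4, with 1. Nrf1 mRNA itself had a log2 fold change of 0.00 ± 0.07.
Sdha: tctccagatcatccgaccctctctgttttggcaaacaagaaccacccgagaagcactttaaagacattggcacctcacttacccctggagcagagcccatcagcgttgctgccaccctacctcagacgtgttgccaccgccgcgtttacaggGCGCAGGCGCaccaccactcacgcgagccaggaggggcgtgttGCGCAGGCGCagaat
Ndufb4: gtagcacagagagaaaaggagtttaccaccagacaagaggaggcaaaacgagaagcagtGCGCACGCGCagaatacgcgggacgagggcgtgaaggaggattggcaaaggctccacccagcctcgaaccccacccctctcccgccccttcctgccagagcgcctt

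Some genes outside the set followed its sample pattern closely. Over the 6 samples and 13220 genes with a mean of at least 50, A430005L14Rik and Zfp319 tracked the mean of the nuclear genes most closely (Pearson r of 0.980 and 0.979), followed by Map3k6, Doc2b and Adat2. The mitochondrial mean was tracked by Mysm1 and Rtel1 (0.996 and 0.994), then Eloa, Rpl13a and Ndor1. These are the highest of many correlations over few samples that share library and scaling, and they describe the samples only.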

How the data were processed

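Libraries of 3 wild-type and 3 Cyfip2 heterozygous samples were made with a stranded mRNA kit, per the labels' protocols. The submitters' processing notes name Salmon 0.11.2, R 3.6.0, DESeq2 1.19.11 and GRCm38 but not their roles. No annotation release was given in the sources used here. Each deposited value is a signal that the authors normalized, not a raw count: within 0.1 reads, only 20.7% to 41.6% of values between 10 and 20 reads were whole, so no count model was used.

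After adding 1 and taking log2, limma 3.58.1 (R 4.3.3) was fitted (limma-trend, genotype only, mean of at least 10, Benjamini-Hochberg over 15151 genes). Symbols matched 18122 of 18160 identifiers. Fold changes understate low genes. Lengths, positions and shared 31-base windows came from GENCODE M21 (GRCm38), using the shortest transcript of the best APPRIS level. A pseudogene sharing at least 100 windows with a member counted as its copy. The procedure was tested on simulated data. No 2 samples of a genotype agreed within counting noise (mean chi-square per gene 9.84 to 27.1).

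Members and lists were chosen with earlier results of these data known. The rule named every mitochondrial member; in each complex the nuclear member with the highest mean and the 3 (complex I) or 2 (others) with the smallest p; isoform families; members under the filter; Atp5s; the smallest p of each pathway list; and the 5 genes most like each genome's mean. A gene the rule names is not reported here. Other genes named (among them Ndufb4c, Ndufb9, Ndufs3, Ndufb6, Ndufv1, Ndufs1, Sdhb, Sdhd, Uqcrfs1, Cox7c, Gm28661 and Gm28437) were chosen after their values were seen. Marker lists of astrocytes (10 of 12 higher), microglia (9 of 12), endothelium and pericytes (11 of 12), blood (3 of 5) and smooth muscle (4 of 8) had none past the threshold. Alternatives were other scalings, variance models, filters, pseudocounts, array weights, a correction for GC content and length, a sample block, a threshold of 0.1 and leaving out each sample.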

Additional observations from a re-analysis of the deposited data

How the results depend on the processing

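The count of members past the adjusted threshold was 0 under every alternative run, and the smallest adjusted p for a named member was 0.311, with the replicate block. Over all genes 2 passed, Cyfip2 and Gm6158. That count was 1 without the trend, 1 with a mean of at least 50 and 1 with the block and GC and length correction together, and 1 to 4 when a sample was left out (4 without wild-type sample 1 or heterozygous sample 3, 1 without heterozygous sample 1). The sample number as a block left 2 genes and 0 members. Same-numbered samples had correlations of 0.13, 0.12 and -0.01 in their deviations, and differently numbered samples had -0.16 to 0.05. These values do not settle whether the numbers pair the samples. The median log2 fold change of complex IV, -0.03, ranged from -0.043 to 0.0083 and that of complex V, 0.00, from -0.023 to 0.0093 with a sample left out; the nuclear median, -0.025, ranged from -0.025 to -0.0047 and was -0.013 with array weights, and the mitochondrial median, 0.059, was 0.012 after GC and length correction. The causes were not tested. Over 40 named members and 757 values, 39 changed sign and 22 members never did. With 3 samples a group, exact tests cannot go below p = 0.1, and depth is known only by estimate.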
